A study of Rattus norvegicus with 8 samples.

Results

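The 4 genes of purine signalling and metabolism P2rx2, Slc28a2, Enpp1 and Hprt1 were followed in penile tissue of rats. They were chosen by the pathway they belong to, with earlier results of these data known, and are read by 4 of the 62 mRNA probes of an array whose 14227 probes that are not controls are otherwise almost all for circular RNAs. The 8 samples comprise 4 labelled Control and 4 labelled Model, with 1 array each. Erectile dysfunction in diabetes is the subject the title names. The protocols record a test with apomorphine, which acts on dopamine receptors and can bring on erection, at 100 μg/kg and with 30 min of observation. Whether Model stands for rats that failed this test is not stated, and the strain, age and way of inducing diabetes are not given in the sources used here. Total RNA was digested with RNase R, which degrades linear RNA, before random-primed labelling with Cy3 and hybridisation. An mRNA probe therefore reads what was left after digestion, either undigested linear RNA or circular RNA that holds the probed sequence, and these cannot be told apart here. In bulk tissue, fewer cells of a type and less RNA per cell cannot be told apart either.

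Purines act both outside and inside the cell. ATP released from nerves and other cells opens P2X channels such as the P2X2 subunit encoded by P2rx2, and ecto-enzymes such as the product of Enpp1 break it down to AMP and pyrophosphate. Nucleosides formed from it, adenosine among them, are taken up again by carriers such as CNT2, the product of Slc28a2, and hypoxanthine and guanine are rebuilt into nucleotides by the salvage enzyme encoded by Hprt1. In erectile tissue, ATP and adenosine are known to relax the smooth muscle of the corpus cavernosum.

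Values below are log2 processed signal relative to the 75th percentile of the array, averaged over the 10 spots that each probe has on an array. The 75th percentile itself was 47.9 to 127 intensity units, and the local background, measured around each spot, had a median of 12.5 to 15 units. No spot on any array was saturated. By the scan records there were 3 runs: the first held Control 1, the next the other 3 Control arrays and the last all Model arrays, so scanning run and group cannot be told apart. Since no label ties a sample to its own rat, p-values here cover only the spread among the samples, some of which may be technical. Of 35 markers listed for 7 cell types of such tissue, 1 had a named mRNA probe, so the labelled tissue was not checked against its markers. That 1 was Map2, a microtubule protein of neurons, and its level was -0.89 ± 0.20 in Control and -1.78 ± 0.33 in Model (log2, SD, n = 4; limma adjusted p = 0.00591). Its part in the results below was not tested.

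The question was whether the 4 purine genes differ between Model and Control. The receptor P2rx2 and the transporter Slc28a2 fell in Model, by 2.43-fold and 3.75-fold. The size of these falls varied with the processing and the arrays used, with log2 changes from -1.77 to -0.65 and from -2.17 to -0.54. The ecto-enzyme Enpp1 fell by 1.44-fold, a change that was not kept under every processing, and the salvage enzyme Hprt1 was not shown to change. At a limma adjusted p under 0.05, 3 of the 4 genes passed, all lower in Model. This is to be read against 47.1% of all 13646 probes tested and 45.9% of the 61 mRNA probes tested that passed in either direction, and against 25.0% and 31.1% that passed as lower (22.1% and 14.8% passed as higher). The median log2 change of the 4 genes was -0.90, beside -0.31 for the mRNA probes tested and -0.03 for all probes tested. The groups did not overlap for the same 3 genes, as they did not for 43.0% of all probes (22.4% with Model lower) and 37.7% of the mRNA probes (24.6% with Model lower).

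**Figure D1:**
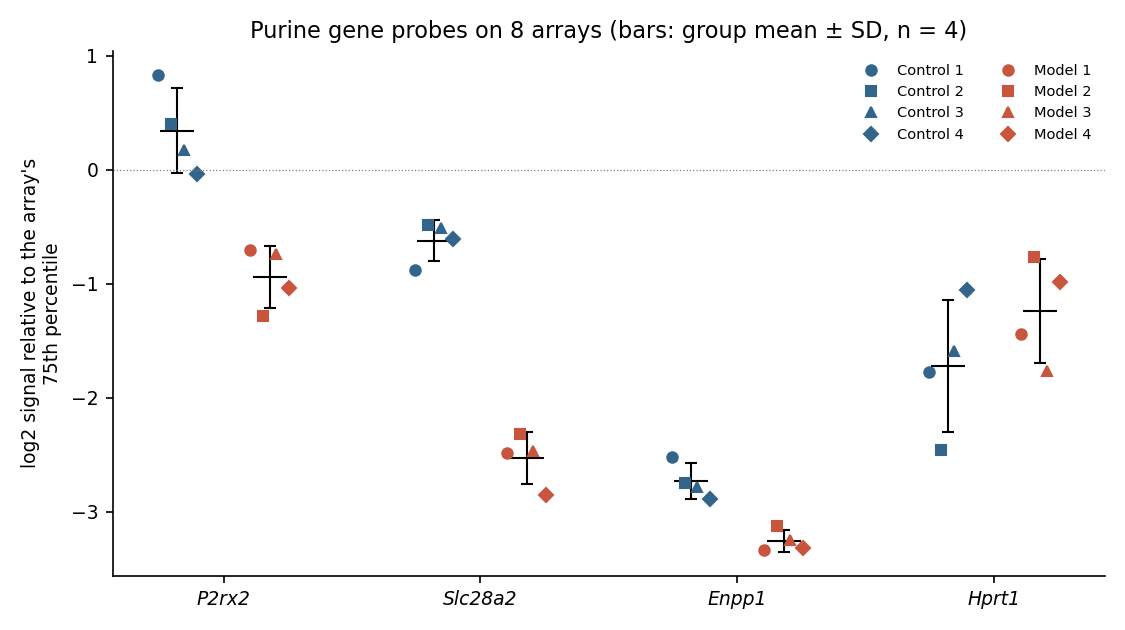
Scaled log2 signal (vertical axis, 0 at the 75th percentile of each array) of the probes for P2rx2, Slc28a2, Enpp1 and Hprt1 (horizontal axis), with 1 point per array, Control in blue and Model in red, and bars for the group mean ± SD (n = 4). All Model points lie below all Control points for P2rx2, Slc28a2 and Enpp1, while the Hprt1 groups overlap.

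P2rx2 encodes a subunit of the P2X receptors, trimeric cation channels opened by extracellular ATP, and is known from sensory and autonomic neurons. Its probe, for NM_053656, read 0.84 on Control 1, 0.40 on Control 2, 0.17 on Control 3 and -0.036 on Control 4. On the Model arrays it read -0.70, -1.28, -0.74 and -1.03 for replicates 1 to 4. Control 1 was the highest and Model 2 the lowest, and the lowest Control array stood 0.67 above the highest Model array. The group means were 0.34 ± 0.37 in Control and -0.94 ± 0.27 in Model (log2, SD, n = 4), a log2 change of -1.28 (SE 0.23, 95% interval -1.79 to -0.77; limma adjusted p = 0.00135).

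The fall of P2rx2 did not hinge on single spots. The SD over the 10 spots of an array was 0.052 to 0.12 on the log2 scale, well under the SD between arrays, and all 40 Control and 40 Model spots were well above background. The lowest of the 40 Control spots, at -0.16, was above the highest of the 40 Model spots, at -0.47. Before scaling, the signal was 63.2 to 125 intensity units in Control and 27.0 to 50.2 in Model, so the groups were also apart without it. Against Control 1 alone, the sole array of its run, taken to vary like the others, the log2 change was -1.77 and against the run of Control 2 to 4 it was -1.12 (limma adjusted p = 0.00572 and 0.00201). With normexp, a background model that with its offset compresses dim signals, it was -0.65 (limma adjusted p = 0.00362).

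Slc28a2 encodes CNT2, a sodium-coupled carrier that concentrates purine nucleosides such as adenosine, inosine and guanosine, and also uridine, in the cell. Its probe, for NM_031664, read -0.88 on Control 1, -0.49 on Control 2, -0.51 on Control 3 and -0.61 on Control 4. The Model arrays gave -2.48, -2.31, -2.46 and -2.85 for replicates 1 to 4. Both groups were tight, with Control 1 and Model 4 the lowest of each, and a gap of 1.44 separated the lowest Control array from the highest Model array. The means of -0.62 ± 0.18 in Control and -2.53 ± 0.23 in Model (log2, SD, n = 4) gave a log2 change of -1.91 (SE 0.19, 95% interval -2.32 to -1.49; limma adjusted p = 4.85e-05).

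On the unscaled arrays, Slc28a2 lay at 34.1 to 83.6 intensity units in Control and at 9.15 to 14.6 in Model. The Model values thus sat near the brightness of the local background itself, with the raw spot 1.73 to 2.67 times its surroundings, against 3.73 to 6.72 times in Control. All 40 Model spots were still called well above background, as were the Control spots, and the lowest Control spot, at -1.03, was above the highest Model spot, at -2.07. The spots of an array varied more in Model, with a coefficient of variation of 7.43% to 16.8%, than in Control, with 4.52% to 9.81%. The log2 change was -1.65 against Control 1 alone and -1.99 against Control 2 to 4 (limma adjusted p = 0.00590 and 7.79e-05). With normexp it was -0.54 (limma adjusted p = 0.00249), the smallest size under any processing tried.

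**Figure D2:**
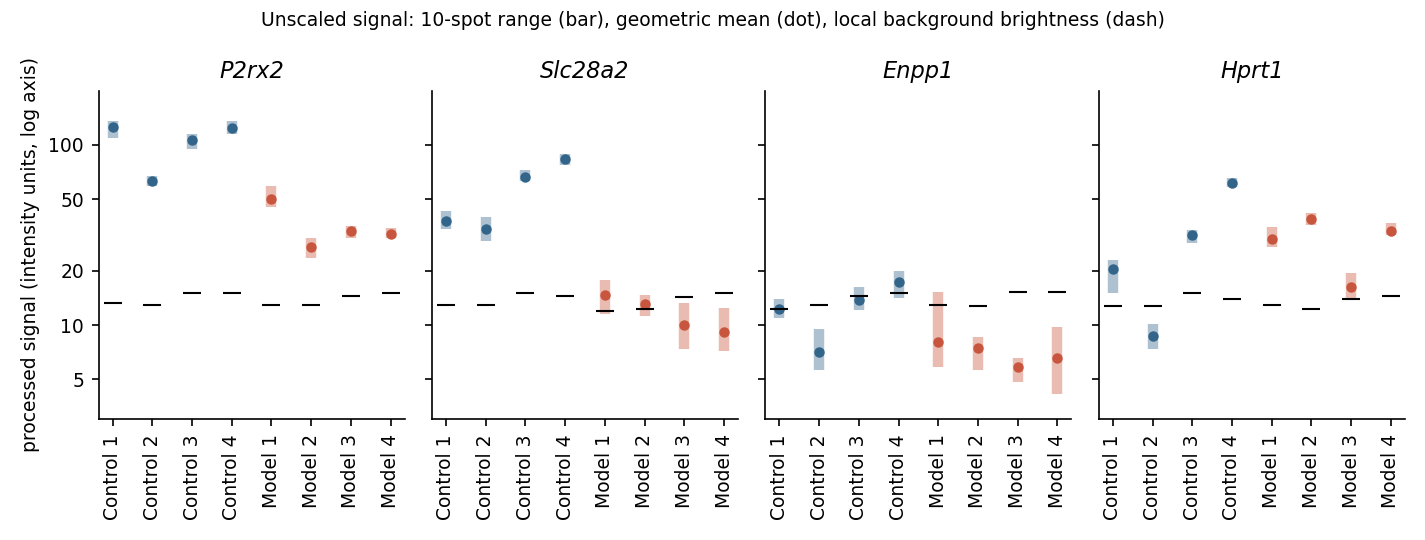
Unscaled processed signal in intensity units (log axis) of each gene on each of the 8 arrays, Control in blue and Model in red. Pale bars span the 10 spots and dots are their geometric mean. Dashes mark the median brightness of the local background, which has already been subtracted from the signal. Near it lie Slc28a2 in Model (9.15 to 14.6 units), Enpp1 on all arrays (5.84 to 17.3 units) and Hprt1 on Control 2 and Model 3 (8.72 and 16.3 units).

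The sequence before a start site is shown for Slc28a2 and Hprt1, the gene with the largest change and the gene whose groups overlapped, because the RefSeq promoter table of the rat assembly GRCr8 held a window for 2 of the 4 genes. The 250 bases before the start site of Slc28a2 lie at chr3:129819538-129819787 on the plus strand. Other RefSeq transcripts of the gene begin further upstream, since the gene spans 129778425 to 129841292. The window of Hprt1 lies at chrX:137655494-137655743, also on the plus strand. The motifs searched on both strands were GGGCGG (the GC box), TATAAA (the TATA box) and CCAAT, and their matches are in capitals.
Slc28a2: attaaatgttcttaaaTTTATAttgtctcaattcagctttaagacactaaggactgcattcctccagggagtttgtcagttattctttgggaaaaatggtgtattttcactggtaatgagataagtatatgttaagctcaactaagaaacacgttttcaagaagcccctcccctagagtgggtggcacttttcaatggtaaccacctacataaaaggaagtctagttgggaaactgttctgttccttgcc
Hprt1: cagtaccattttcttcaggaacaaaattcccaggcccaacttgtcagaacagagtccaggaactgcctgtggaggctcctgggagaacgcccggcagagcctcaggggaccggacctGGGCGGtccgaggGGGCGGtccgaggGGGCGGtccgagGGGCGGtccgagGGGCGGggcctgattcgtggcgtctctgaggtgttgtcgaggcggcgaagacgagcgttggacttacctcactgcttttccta

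The windows differ in composition. That of Slc28a2 is 38.0% G and C with 1 CpG, and 9.81% of all 33469 windows of this length have a lower G and C share. That of Hprt1 is 63.6% G and C with 19 CpG, and 82.1% of windows lie lower. Hprt1 holds 5 forward matches to GGGCGG, a motif found in 30.5% of all windows, and Slc28a2 holds none. Slc28a2 holds 1 match to TATAAA, on the reverse strand and near the end of the window farthest from the start site. Of all windows, 12.9% hold at least 1 on either strand. Neither holds CCAAT, which 34.0% of windows do, and no match overlapped another. These are descriptions of sequence, and the array does not measure activity at a start site.

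Enpp1 encodes a membrane ecto-enzyme that cleaves ATP outside the cell and releases pyrophosphate, an inhibitor of calcification. Its probe, for NM_053535, read -2.51 on Control 1, -2.75 on Control 2, -2.78 on Control 3 and -2.88 on Control 4. The Model arrays gave -3.33, -3.13, -3.24 and -3.32 for replicates 1 to 4, all lower than every Control array, by a gap of 0.24. The means were -2.73 ± 0.16 in Control and -3.26 ± 0.094 in Model (log2, SD, n = 4). The log2 change of -0.52 (SE 0.17, 95% interval -0.89 to -0.16) passed with a limma adjusted p of 0.0241.

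Enpp1 was close to the local background on all arrays. The unscaled signal was 7.13 to 17.3 intensity units in Control and 5.84 to 8.10 in Model, so that Control 2 fell inside the Model range before scaling. All 40 Control spots and 37 of the 40 Model spots were well above background, with 1 spot missed on each of Model 1, 3 and 4. The coefficient of variation over spots reached 31.8% on Model 1, and single spots of the groups overlapped, the Control spots going down to -3.18 and the Model spots up to -2.42. The call was lost under some scalings, with normexp and when some arrays were left out. With the 75th percentile taken over probes detected on all arrays the log2 change was -0.65 (limma adjusted p = 0.00941), but it was -0.20 with median centring (limma adjusted p = 0.290), -0.26 with the median of the mRNA probes as zero (0.366) and -0.30 after quantile normalization (0.134). With normexp it was 0.019 (limma adjusted p = 0.937), against -0.74 over Control 1 alone (0.0516) and -0.45 over Control 2 to 4 (0.0403). Without Control 3 the adjusted p was 0.0586, without Model 1 0.0657 and without Model 4 0.0583.

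Hprt1 encodes hypoxanthine-guanine phosphoribosyltransferase, which returns hypoxanthine and guanine to IMP and GMP and is often used as a reference gene. Its custom probe, for NM_012583.2, read -1.77 on Control 1, -2.46 on Control 2, -1.59 on Control 3 and -1.05 on Control 4. The Model arrays gave -1.44, -0.76, -1.77 and -0.98 for replicates 1 to 4. The groups overlapped, with 2 of the 4 Model arrays above the highest Control array and Model 3 level with Control 1. The means were -1.72 ± 0.58 in Control and -1.24 ± 0.45 in Model (log2, SD, n = 4), a log2 change of 0.48 (SE 0.32; limma adjusted p = 0.236). The 95% interval, from -0.22 to 1.18, holds no change as well as a rise of 2.27-fold.

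Hprt1 varied more between arrays of one group than the other 3 genes. Its range was 1.40 in Control and 1.01 in Model, against 0.37 and 0.21 for Enpp1, 0.39 and 0.53 for Slc28a2 and 0.87 and 0.58 for P2rx2. The SD over the 10 spots of an array was 0.056 to 0.18 for Hprt1, so its spread lay between arrays and not between spots. Unscaled, its signal ran from 8.72 units on Control 2 to 61.4 on Control 4 and from 16.3 on Model 3 to 38.7 on Model 2. Control 2 and Model 3 were thus near the local background, with the raw spot 1.80 and 2.36 times its surroundings. Single arrays moved the change: it was 0.23 without Control 2 and 0.70 without Control 4, and did not pass in either case (limma adjusted p = 0.545 and 0.0679).

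**Figure D3:**
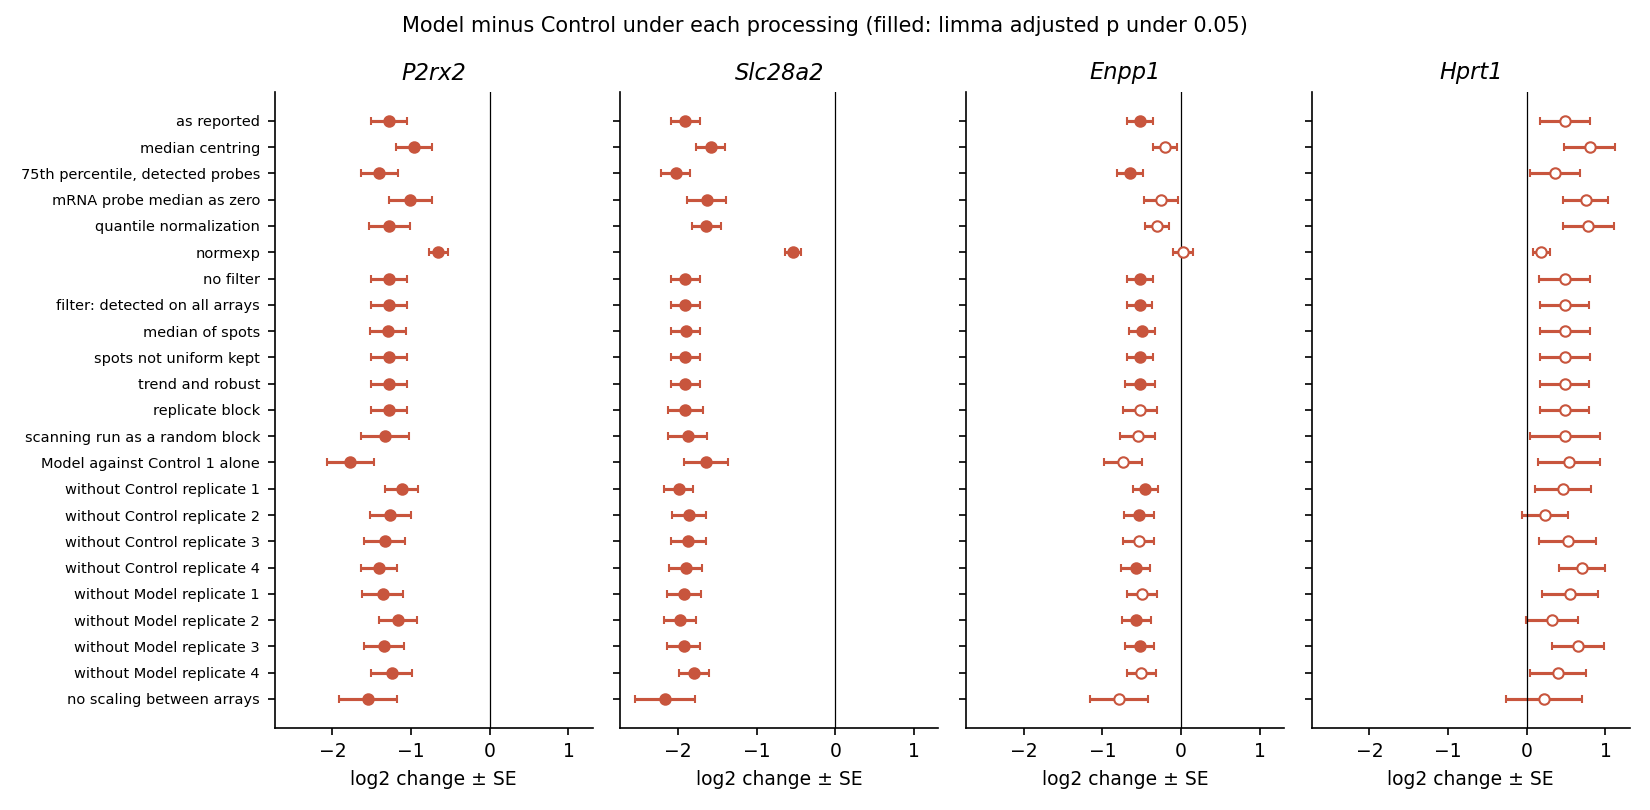
Log2 change, Model minus Control, ± SE (horizontal axis, the same in each panel) of the 4 genes under each processing (rows), with filled points where the limma adjusted p was under 0.05. P2rx2 and Slc28a2 are filled in every row shown, Hprt1 in none, and Enpp1 in some, with its normexp point at 0.019.

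The changes on these arrays went with the brightness of the probes. Of 10 equal classes of all tested probes by mean level, Enpp1 lay in the dimmest, where the median log2 change was -0.15 and 30.7% of the probes passed. Slc28a2 and Hprt1 lay in the fifth class, with a median of -0.31, 157 probes called higher and 475 called lower. P2rx2 lay in the eighth class, with a median of 0.14, 402 probes called higher and 286 called lower. The fall of P2rx2 thus ran against the median of its class, and that of Slc28a2 went beyond it. When the arrays were instead forced to a common distribution by quantile normalization, P2rx2 was at -1.28 and Slc28a2 was at -1.64 (limma adjusted p = 0.00408 and 2.26e-04).

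**Figure D4:**
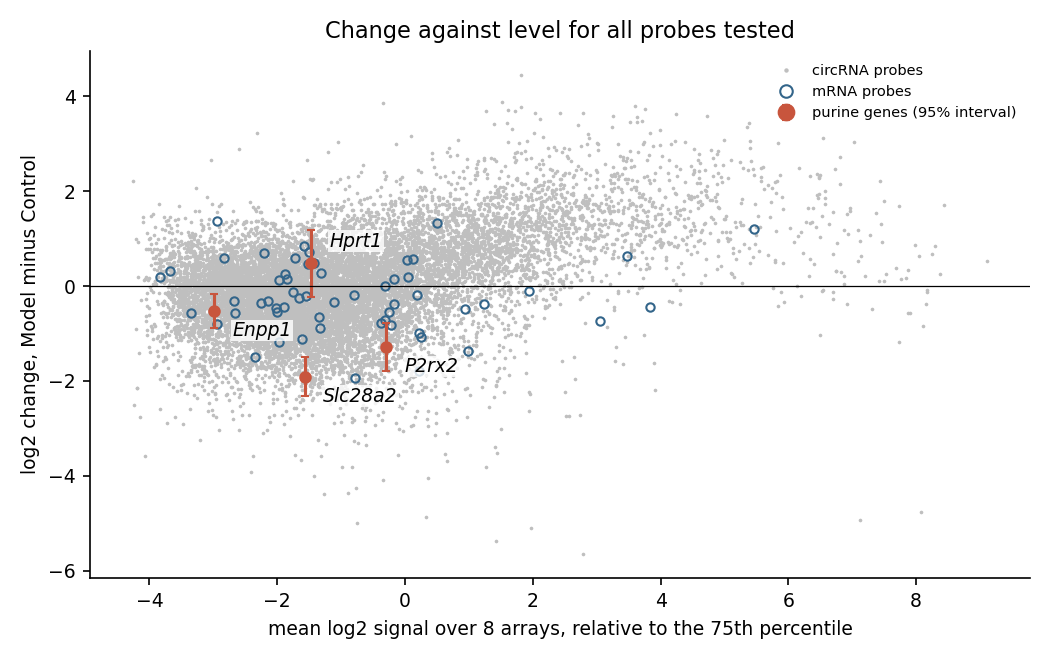
Log2 change, Model minus Control (vertical axis), against the mean log2 level over the 8 arrays (horizontal axis) for all 13646 probes tested, with circRNA probes in grey, mRNA probes as blue rings and the 4 purine genes in red with 95% intervals. The grey cloud rises with level only among the brighter probes. By 10 equal classes of level, the median change is -0.15 in the dimmest, -0.31 in the fifth and 1.25 in the brightest. P2rx2 at -1.28 and Slc28a2 at -1.91 lie in the lower part of the cloud.

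Whether the 4 genes changed by unequal amounts was asked within each array. There the difference of the values of a pair of genes does not depend on an amount subtracted from the whole array. It can change with quantile normalization or normexp. Slc28a2 minus Hprt1 lay between 0.45 and 1.97 on the Control arrays and between -1.87 and -0.70 on the Model arrays, a change of -2.39 on the log2 scale or 5.23-fold in their ratio, and of -0.73 with normexp. For P2rx2 minus Hprt1 the change was -1.76 (-0.84 with normexp), and the groups overlapped narrowly, with Model 3 at 1.03 and Control 4 at 1.02. The transporter and the receptor were also both lower relative to Enpp1 on every Model array than on any Control array, with changes of -1.38 for Slc28a2 (-0.56 with normexp) and -0.76 for P2rx2. For Enpp1 minus Hprt1 the change was -1.01, with overlap, and -0.17 with normexp.

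P2rx2 minus Slc28a2 changed the other way, by 0.63, with overlapping groups, and its direction turned with normexp, at -0.11. By an exact two-sided permutation test over 70 splits, p was 0.0286 for the 3 pairs without overlap, the smallest that 4 against 4 arrays allow, and 0.0571 for the other 3. Adjusted over the 6 pairs, p was 0.0571 for each, so none passed. When 1 array was left out, the 5 pairs other than P2rx2 and Slc28a2 passed in 1 of 8 runs. That was the run without Control 4, with an adjusted p of 0.0343 for each by exact permutation of the arrays left. In the other runs none of them passed, and their highest adjusted p was 0.0857 to 0.137 (exact permutation).

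**Figure D5:**
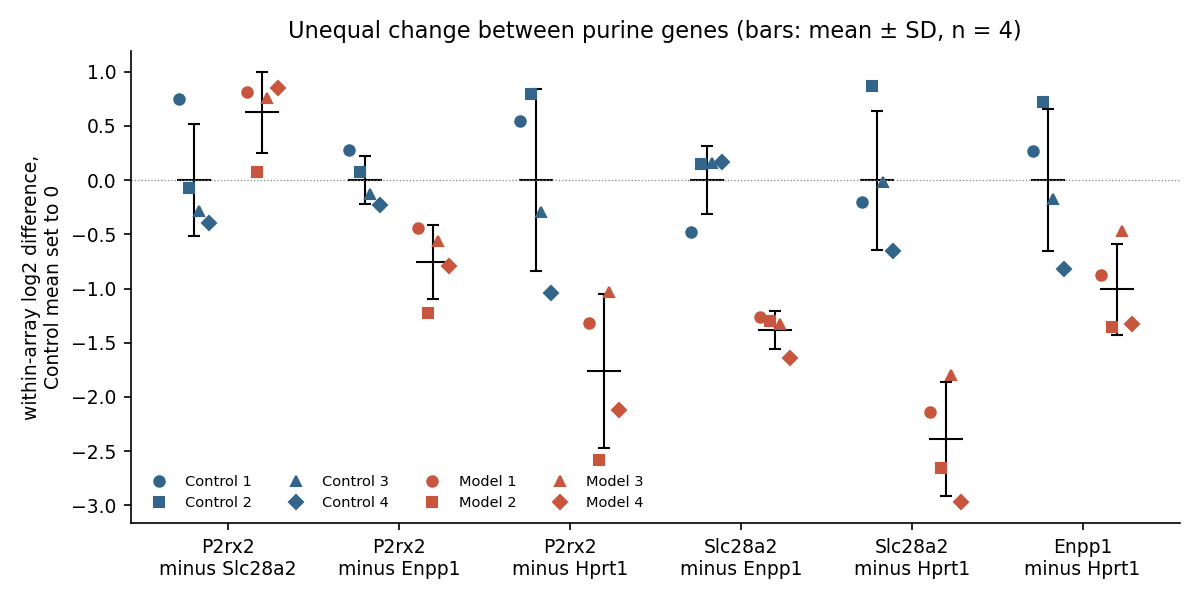
Difference of the log2 values of 2 genes within an array (vertical axis, with the Control mean of each pair set to 0) for the 6 pairs (horizontal axis), 1 point per array, Control in blue and Model in red, bars for the mean ± SD (n = 4). The Model points lie below all Control points for P2rx2 minus Enpp1, Slc28a2 minus Enpp1 and Slc28a2 minus Hprt1.

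The other genes whose values went up and down most like those of the purine genes were sought among 38 mRNA probes with a gene symbol. Likeness was the root mean square distance between profiles over the 8 arrays, each centred on its mean. Closest to P2rx2, whose own profile has a root mean square of 0.70, were Cyp2e1, a cytochrome P450, at 0.28, Mex3c, an RNA-binding ubiquitin ligase, at 0.36 and Ldha, a lactate dehydrogenase subunit, at 0.40. Closest to Slc28a2, with a root mean square of 0.97, was Pdcd10, a cerebral cavernous malformation gene, at 0.29. Ldha at 0.30, Mex3c at 0.37 and P2rx2 at 0.50 came next. Ldha has another probe among the 38, which was not among the nearest 3 of either gene, at 0.45 from P2rx2 and 0.64 from Slc28a2.

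Closest to Enpp1, with a root mean square of 0.29, were the ribosomal protein gene Rpl13a at 0.16, the nuclear export factor gene Cse1l at 0.20 and B2m, beta-2-microglobulin, at 0.21. Closest to Hprt1, with a root mean square of 0.51, were the focal adhesion kinase relative Ptk2b at 0.33, the ubiquitin ligase gene Trim2 at 0.34 and Sdha, a subunit of mitochondrial complex II, at 0.35. From Hprt1, P2rx2 and Slc28a2 were among the farthest of the 38, at 1.11 and 1.30. These distances describe 8 arrays that share the difference between groups and the scanning runs.

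Of 63 genes listed for purine receptors, ectonucleotidases, nucleoside transport, salvage, breakdown and synthesis, the 4 described here are those with a named mRNA probe. The other P2X and P2Y receptors, the adenosine receptors, CD73 (Nt5e) and the equilibrative transporters were not analysed here.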

How the data were processed

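The 8 scans, each of 1 colour, had been quantified by Agilent Feature Extraction 11.0.1.1, per the file headers. The processed signal deposited by the authors is an intensity after background subtraction and detrending within the array, with no scaling between arrays recorded. Other deposited columns give median intensities for spot and local background, and flags. Non-uniform spots were dropped (none of the 4 genes had any), the rest averaged per probe as log2 values, and each array's 75th percentile over non-control probes subtracted. Probes well above background (on no fewer of their spots than not) on at least 4 of 8 arrays were kept: 13585 circRNA and 61 mRNA probes. Symbols came from RefSeq accessions of GRCr8. Groups were compared by lmFit and eBayes (limma 3.58.1, R 4.3.3), adjusted by Benjamini-Hochberg over all 13646 probes, with a threshold of 0.05. The fit was tested on simulated data in which a small share of the probes changed. The permutation test was checked on made-up values of fully separated groups. The number of arrays limits the precision.

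The genes named are the 4 purine genes, any other gene of the listed pathways or markers with a probe, and the 3 nearest profiles of each. These members and lists were chosen with earlier results of these data known. The alternatives were other scalings, quantile normalization, normexp (offset 50), other filters, the median of the spots, flagged spots kept, a trended, robust eBayes, blocks for replicate number or scanning run, single Control runs and leaving out each array. No scaling, and quantile normalization for the pairs, were added after the data were seen. The deposited table of circRNA values has no row for these genes and was not used.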

Additional observations from a re-analysis of the deposited data

Results flagged for a closer look

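In 20 sets of 4 arrays (each gene and each pair of genes in each group), 1 array lay far from the other 3 in 2 sets, where chance gives about 1 in 20. The difference of P2rx2 and Slc28a2 was 1.04 on Model 2, where P2rx2 was at its lowest and Slc28a2 at its highest of the group, while the remaining Model arrays gave 1.73 to 1.81. The difference of Slc28a2 and Enpp1 was 1.64 on Control 1, the array scanned alone, against 2.26 to 2.28 on the other Control arrays.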

How the results depend on the processing

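P2rx2 and Slc28a2 passed at a limma adjusted p under 0.05 in all 22 alternatives, with log2 changes from -1.77 to -0.65 and from -2.17 to -0.54. Hprt1 passed in none of 22, with changes from 0.19 to 0.80 and adjusted p from 0.0527 to 0.772. Enpp1 passed in 11 of 22, among them the percentile over detected probes (-0.65). Its call was lost with median centring (-0.20), the mRNA median as zero (-0.26), quantile normalization (-0.30), run as a random block (-0.55), Control 1 alone (-0.74) and no scaling (-0.79), and its sign turned with normexp (0.019); leaving out 1 array gave -0.58 to -0.45. Leaving out 1 array moved P2rx2 from -1.41 to -1.12, Slc28a2 from -1.99 to -1.80 and Hprt1 from 0.23 to 0.70. With the replicate block Enpp1 kept -0.52 but lost its call (limma adjusted p = 0.0738), no other gene's call changed, and 5964 in place of 6434 probes passed. Same-numbered arrays correlated in their deviations from the group means at -0.18 to 0.19, and differently numbered ones at -0.35 to 0.36. So few values cannot settle whether same-numbered arrays share more than a number. The scaling alternatives moved the zero point, with the median change of all probes at 0.29 with median centring, 0.24 with the mRNA median as zero, -0.16 with the percentile over detected probes and -0.29 without scaling. The share of higher among called probes went from 46.9% to 68.3%, 66.0%, 38.4% and 29.1%, and was 61.7% with normexp. Fewer probes passed with normexp (3569), run as a random block (4056), Control 1 alone (4161) and no scaling (3828). Among the mRNA probes 28 passed, but 14 with normexp, the run block or no scaling, 17 with Control 1 alone and 18 without Control 3.

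With all 8 arrays, the adjusted p of the within-array differences passes as soon as 4 of the 6 pairs, rather than 3, have no overlap. With normexp, the median of the spots and quantile normalization (exact permutation, adjusted p = 0.0429 each), P2rx2 minus Enpp1 was -0.67, -0.79 and -0.97, P2rx2 minus Hprt1 -0.84, -1.78 and -2.06, Slc28a2 minus Enpp1 -0.56, -1.40 and -1.34, and Slc28a2 minus Hprt1 -0.73, -2.39 and -2.42. P2rx2 minus Slc28a2 reversed with normexp (-0.11), and Enpp1 minus Hprt1 was -0.17 with it (exact permutation, adjusted p = 0.411). Leaving out 1 array gave -0.86 to -0.60, -2.11 to -1.49, -1.54 to -1.30, -2.60 to -2.10 and 0.50 to 0.88 for these pairs in that order, and -1.28 to -0.76 for Enpp1 minus Hprt1. Of these runs, only the one without Control 4 had pairs that passed. Signal over background limits Enpp1 on all arrays, Slc28a2 in Model and Hprt1 on Control 2 and Model 3. The causes of the lost calls were not tested.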
